A study of Mus musculus with 37 samples.

Results

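The genes described here are 43 genes of fatty acid oxidation and its main transcriptional regulator, PPAR-alpha, out of 55536 genes in the count tables. They were chosen by name, with earlier results of these data known. Rows were matched to symbols through their Ensembl identifiers in the GENCODE M21 annotation, which uses the mouse build GRCm38. By the compartment of the protein, 19 are mitochondrial, 16 are peroxisomal, 3 act in both, and 5 stand elsewhere: Ppara itself, the brain isoform Cpt1c, the cytosolic thioesterase Acot1, the acyl-CoA synthetase Acsl1 and the pantetheinase Vnn1. The deposited RNA-seq covers 2 tissues, liver and cortex of the brain, taken at an age of 10 months from mice of 4 genotypes: the combined genotype, which carries both TMEM106B-/- and TDP-43Q331K, TMEM106B-/- alone, TDP-43Q331K alone, and WT. Each genotype had 4 liver libraries, and the cortex had 5, 5, 6 and 5 libraries in that order. TMEM106B is a lysosomal membrane protein, TDP-43 an RNA-binding protein encoded by Tardbp, and the Q331K change was knocked in per the series title. The labels give neither the zygosity nor the design of either allele, nor whether each library came from its own animal, so a p-value here reflects only how far these libraries spread, which may be technical.

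Beta-oxidation shortens fatty acids from the acyl-CoA end. Mitochondria take up long-chain acyl groups as carnitine esters and burn them for energy, whereas peroxisomes shorten very long-chain, branched and dicarboxylic acids, whose products can pass on to mitochondria. PPAR-alpha is a nuclear receptor abundant in liver that binds fatty acids and, paired with RXR, binds DNA at direct repeats of AGGTCA spaced by a single base, and many genes of both pathways are among its known targets in mouse liver.

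Because the response element is defined by sequence, the promoters of members were read from RefSeq (GRCm38.p6), 250 bases before to 50 after the start, and 36 of the 43 members matched an entry. The element (AGGTCA, any single base, AGGTCA), searched on both strands, was present in 0 of the 36, exactly or with at most 1 mismatch, against 0.0481% and 0.644% of 27025 genes with a promoter in that table. With at most 2 mismatches, a search added after the first result was seen, 4 members held it (11.1% of 36, against 4.4% of all): Acot4, Acox2, Etfa and Slc25a20. A single AGGTCA was found in 7 members (19.4%, against 18.1% of all). A missing match says only that these letters are not in this window. The promoters printed here are those of Acot4 and Slc25a20, with the 2-mismatch match in capitals (on the minus strand in Acot4, the member that differed in cortex), those of Ehhadh and Pdk4, which differed in liver and hold no AGGTCA in the window, and that of Hadhb with capitals marking the 85 bases between its start and that of Hadha on the other strand. They stand at chr12:84038129-84038428 (plus strand, Acot4), chr9:108661886-108662185 (plus strand, Slc25a20), chr16:21787785-21788084 (minus strand, Ehhadh), chr6:5496229-5496528 (minus strand, Pdk4) and chr5:30155003-30155302 (plus strand, Hadhb), and are written 5′ to 3′ on the strand of the gene.

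Acot4: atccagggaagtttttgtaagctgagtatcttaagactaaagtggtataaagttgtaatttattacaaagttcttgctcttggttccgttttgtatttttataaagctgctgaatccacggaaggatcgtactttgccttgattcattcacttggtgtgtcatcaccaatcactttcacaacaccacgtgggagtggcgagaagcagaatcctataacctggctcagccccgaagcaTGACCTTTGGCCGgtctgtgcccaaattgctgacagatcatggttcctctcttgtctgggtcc
Slc25a20: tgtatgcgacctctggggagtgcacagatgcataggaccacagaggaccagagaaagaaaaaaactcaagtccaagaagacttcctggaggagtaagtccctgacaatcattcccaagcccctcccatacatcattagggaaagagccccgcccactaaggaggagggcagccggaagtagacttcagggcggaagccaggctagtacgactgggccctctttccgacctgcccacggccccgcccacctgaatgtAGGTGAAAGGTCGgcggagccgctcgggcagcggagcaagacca
Ehhadh: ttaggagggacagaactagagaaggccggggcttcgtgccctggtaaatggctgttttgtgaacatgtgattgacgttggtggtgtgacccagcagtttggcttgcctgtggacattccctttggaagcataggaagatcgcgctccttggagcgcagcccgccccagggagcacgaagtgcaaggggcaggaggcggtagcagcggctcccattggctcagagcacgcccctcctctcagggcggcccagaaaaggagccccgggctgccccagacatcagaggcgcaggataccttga
Pdk4: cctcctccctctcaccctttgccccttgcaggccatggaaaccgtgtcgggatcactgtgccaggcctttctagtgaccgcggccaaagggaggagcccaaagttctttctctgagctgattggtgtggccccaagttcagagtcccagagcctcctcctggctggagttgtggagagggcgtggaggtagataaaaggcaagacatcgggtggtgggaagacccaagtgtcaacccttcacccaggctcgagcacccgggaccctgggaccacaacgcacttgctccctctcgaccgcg
Hadhb: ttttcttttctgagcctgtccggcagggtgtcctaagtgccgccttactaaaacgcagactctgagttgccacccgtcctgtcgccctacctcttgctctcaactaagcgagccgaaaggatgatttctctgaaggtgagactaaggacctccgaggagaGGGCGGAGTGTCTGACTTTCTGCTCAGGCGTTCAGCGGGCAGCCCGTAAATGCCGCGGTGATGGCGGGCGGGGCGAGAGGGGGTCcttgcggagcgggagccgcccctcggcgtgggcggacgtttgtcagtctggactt

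Totals were 50.5 to 74.1 M counts in liver and 28.8 to 46.3 M in cortex. Values are CPM, counts scaled to library size with TMM factors. Comparisons used the edgeR quasi-likelihood test with Benjamini-Hochberg adjustment over all tested genes, 16710 in liver and 21248 in cortex, and a gene was called at an adjusted p under 0.05; calls are those of edgeR unless another tool is named. Log2 fold changes are given ± SE, also where a value with its error stands alone in parentheses after a gene in a comparison, and medians over genes are medians of log2 fold changes. All 43 members passed the filter on low counts in liver and 41 in cortex, where Acox2 and Cpt1b were too low. Tmem106b RNA was no lower in libraries labelled TMEM106B-/-: it averaged 135 ± 9.15 CPM in combined livers, 115 ± 9.32 in TMEM106B-/- livers, 91.9 ± 21.3 in TDP-43Q331K livers and 96.5 ± 16.3 in WT livers (SD, n = 4 each). Directions below therefore rest on the labels, and TMEM106B-/- stands for libraries labelled TMEM106B-/-. Tardbp was called in no comparison of either tissue. In cortex it ran from 169.9 to 186.6 CPM in TDP-43Q331K, 150.3 to 164.0 in combined, 140.8 to 172.0 in TMEM106B-/- and 149.6 to 164.9 in WT libraries. TDP-43Q331K cortices thus lay above all WT and all combined cortices. Hepatocyte markers were all detected in liver and neuron markers in cortex. Liver libraries WT replicate 2, TMEM106B-/- replicate 4 and combined replicate 1 stood apart with summed acute phase transcripts of 27190 to 33240 CPM, against 9604 to 18220 CPM in the other 13, and each was the lowest of its genotype for 22 or 23 members. By genotype the median sum was 11080 CPM in combined, 11520 in TMEM106B-/-, 12220 in TDP-43Q331K and 17700 in WT livers. The lowest WT liver (13340 CPM) lay above the highest TDP-43Q331K liver (13240 CPM). What this difference between genotypes contributes to the results was not tested.

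In WT livers the most abundant members per kilobase of exon were Phyh, which starts the breakdown of branched phytanic acid in peroxisomes (945 ± 93.3 CPM per kb), the mitochondrial thiolase Acaa2 (662 ± 46.3) and the peroxisomal thiolase Acaa1b (647 ± 181), all SD with n = 4. Acaa2 and Acaa1b did not differ beyond their spread. Acadvl, the dehydrogenase for very long chains (204 ± 7.71), and Etfa, a subunit of the electron carrier of all acyl-CoA dehydrogenases (183 ± 13.3), came next and overlapped each other. At the bottom stood Pdk4, the kinase that shuts off pyruvate dehydrogenase (0.686 ± 0.0787), and the muscle and brain transferases Cpt1b (0.126 ± 0.0185) and Cpt1c (0.120 ± 0.0133). The liver transferase Cpt1a, the gate of mitochondrial uptake, stood at 25.6 ± 2.65 CPM per kb, and Ppara at 11.9 ± 3.57. Liver levels exceeded cortex levels for 39 of 43 members, by a median ratio of 12.2 (14.3 for mitochondrial and 15.1 for peroxisomal members). In WT cortices Phyh was again highest per kilobase (29.0 ± 1.56 CPM per kb), followed by Cpt1c (15.8 ± 0.76) and the CoA diphosphatase Nudt19 (12.4 ± 0.291, SD, n = 5). The 4 members higher in cortex were Cpt1c, Abcd2, a peroxisomal transporter of very long-chain acyl-CoA, Acot2 and Pdk4. Exon length was the union of all annotated exons, from 1164 bases in Etfb to 10483 in Acsl1, and the order of genes depends on it. Cpt1b, Etfb and Hacl1 share 81.4%, 53.0% and 31.1% of their exon bases with read-through genes, so their levels may be too low. Levels in the tissues come from separate tables, so the contrast of liver and cortex is a description without a test. In bulk tissue, fewer cells of a type and less RNA per cell cannot be told apart.

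**Figure D1:**
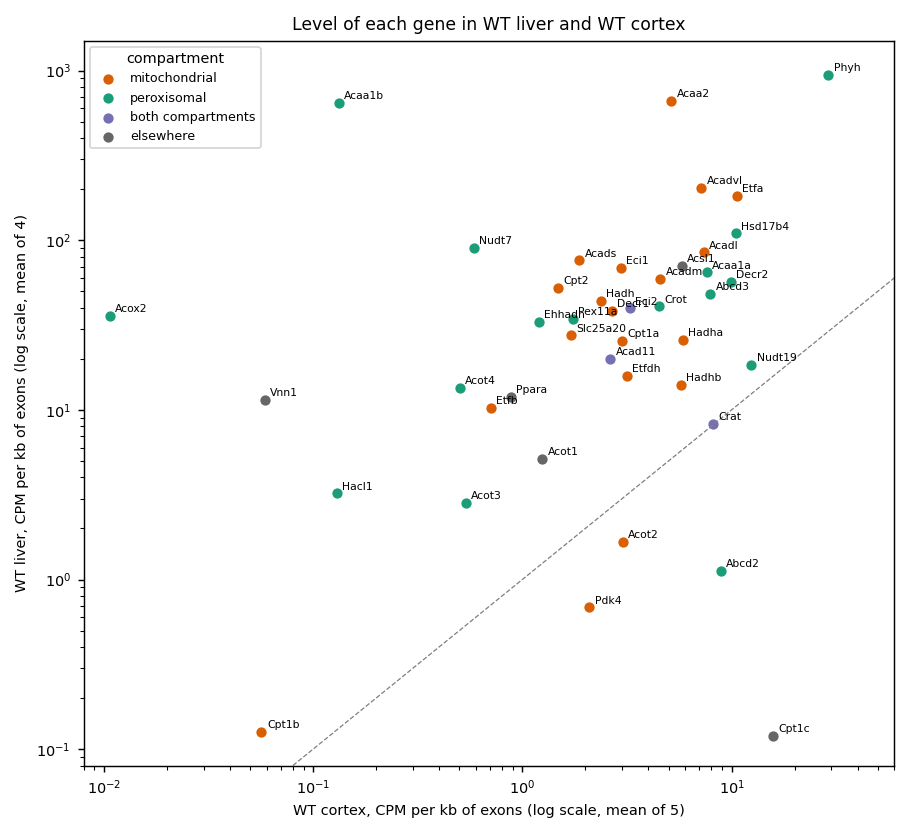
Mean level of each of the 43 genes in WT cortex (horizontal, 5 libraries) and WT liver (vertical, 4 libraries), in CPM per kb of exons on log axes, coloured by compartment. The dashed line marks equal levels, and 39 genes lie above it; Crat is almost on it, and Cpt1c, Abcd2, Acot2 and Pdk4 lie below.

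The combined genotype was set against WT in liver to ask how these genes differed when both alleles were present. Of 43 members 12 were called (27.9%), 10 higher and 2 lower, where 7.04% of all tested genes were called in either direction, 4.19% higher and 2.85% lower. Of the mitochondrial members 5 of 19 rose and 1 fell, and of the peroxisomal members 3 of 16 rose and 1 fell. Crat, of both compartments, and Vnn1 also rose. The median log2 fold change was 0.29 over all members, 0.37 over the mitochondrial and 0.40 over the peroxisomal members, against -0.03 over all tested genes, and 35 of 43 were above 0. The number of members called was 4 without combined replicate 3, 5 without WT replicate 2, 7 without combined replicate 2 and 7 without combined replicate 4. Calls over all tested genes fell too, from 700 higher and 476 lower with all libraries. In the same order they were 460 and 221, 452 and 310, 465 and 221, and 557 and 312. The median over all members stayed between 0.27 and 0.41 over the 15 alternatives run. Ehhadh, Vnn1, Pdk4 and Crat were called under all of them. Without the 3 livers of high acute phase transcripts, a choice made after seeing the data, 10 members were called, 7 higher and 3 lower. Acot2, Decr1 and Decr2 lost their call and Nudt7 was added. Of all tested genes 541 were then called higher and 360 lower. DESeq2 and limma-voom each called 17 members, 14 higher and 3 lower, with all 12 among them. Of all tested genes DESeq2 called 1065 higher and 786 lower, and limma-voom 1075 and 865. Both tools added the members Abcd2, Abcd3, Eci1 and Nudt7, DESeq2 also Pex11a and limma-voom also Etfdh.

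**Figure D2:**
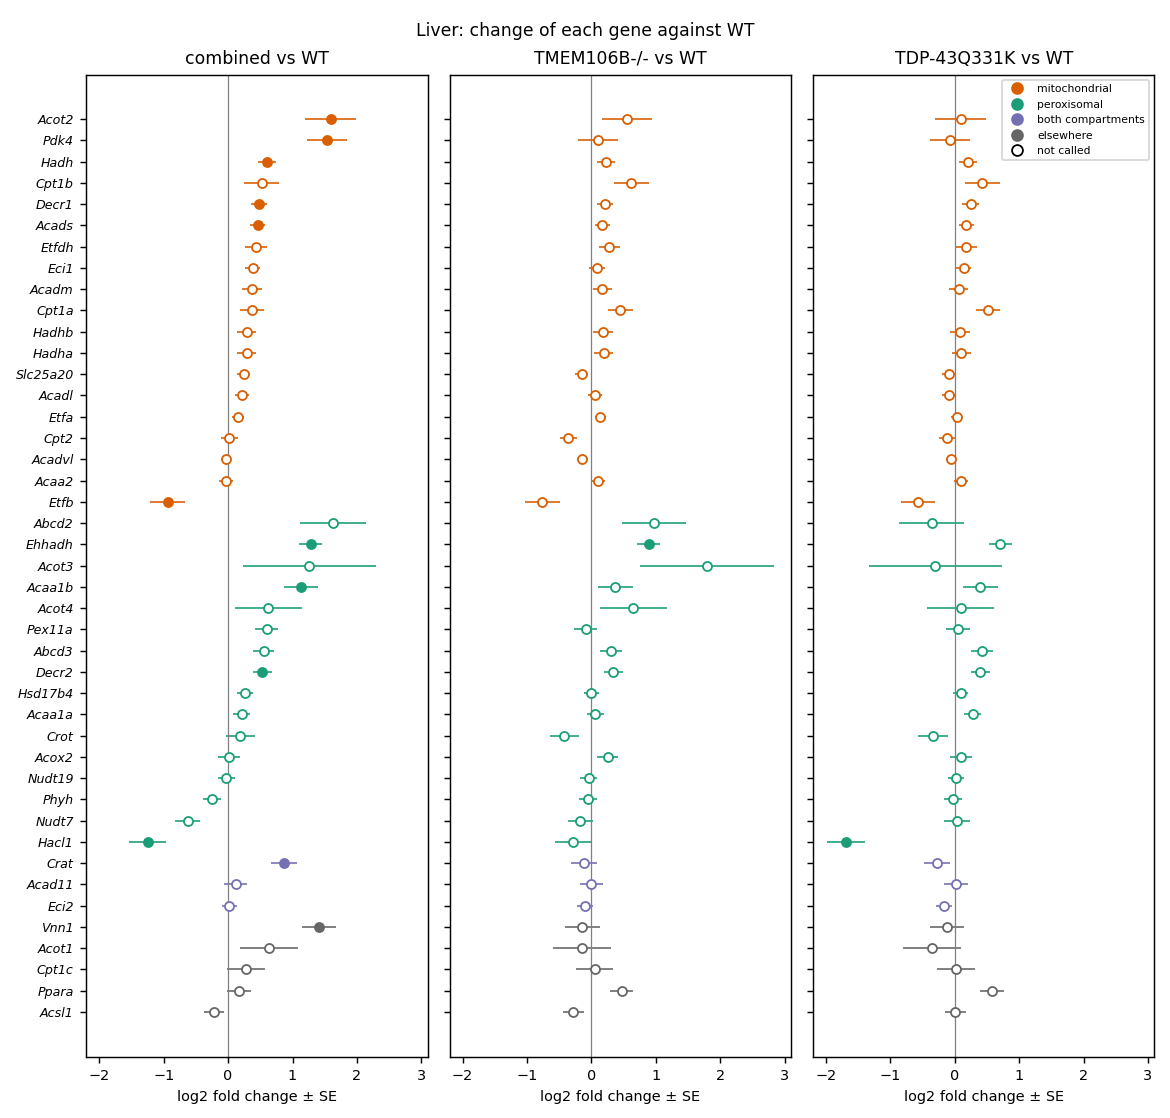
Log2 fold change ± SE in liver of each gene for the combined genotype, TMEM106B-/- and TDP-43Q331K against the same 4 WT libraries, grouped by compartment and coloured as in the legend; filled points were called. In the combined genotype 12 points are filled, in each single genotype 1.

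Among the 43 members, Ehhadh had the smallest adjusted p in this comparison. It encodes the bifunctional enzyme (hydratase and dehydrogenase) of the classical PPAR-alpha-inducible peroxisomal pathway (chr16:21761287-21787807). Ehhadh stood at 178, 232, 329 and 214 CPM in combined livers, 189, 196, 181 and 162 in TMEM106B-/- livers, 201, 168, 124 and 148 in TDP-43Q331K livers and 111, 76.9, 102 and 102 in WT livers. All 12 livers of the mutant genotypes lay above the highest WT liver. It was 2.43-fold higher in combined than in WT livers (log2 fold change 1.28 ± 0.18, edgeR adjusted p = 0.000413). Acaa1b, a thiolase that ends the peroxisomal cycle (chr9:119148023-119157093), was measured at 1678, 2943, 3485 and 3037 CPM in combined livers, 2325, 1233, 1990 and 1028 in TMEM106B-/- livers, 1833, 1758, 1767 and 1328 in TDP-43Q331K livers and 1152, 825, 1493 and 1609 in WT livers. Every combined liver exceeded every WT liver, though combined replicate 1 did so narrowly, and the single genotypes overlapped WT. The difference was 2.19-fold (log2 fold change 1.13 ± 0.27, edgeR adjusted p = 0.0191), and the call was lost without WT replicate 2 or without combined replicate 3. Its close copy Acaa1a, whose reads the counting may share, was not called (log2 fold change 0.21 ± 0.13, edgeR adjusted p = 0.358). Decr2, the peroxisomal reductase for unsaturated chains, had 199.5, 212, 221 and 241 CPM in combined livers, 226, 196, 184 and 161 in TMEM106B-/- livers, 226, 213, 169.5 and 192 in TDP-43Q331K livers and 134, 115, 159 and 198 in WT livers. The lowest combined liver lay just above the highest WT liver (log2 fold change 0.53 ± 0.15, edgeR adjusted p = 0.0440), and the call held in 5 of 15 alternatives; it was lost without the 3 livers of high acute phase transcripts.

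Hacl1, the lyase that cleaves 2-hydroxyacyl-CoA in the alpha-oxidation of phytanic acid (chr14:31598730-31641286), went the other way. Its values were 9.64, 5.39, 5.09 and 6.697 CPM in combined livers, 13.4, 20.7, 9.67 and 8.61 in TMEM106B-/- livers, 3.73, 6.39, 3.31 and 6.33 in TDP-43Q331K livers and 14.03, 18.7, 13.99 and 17.2 in WT livers. Combined and TDP-43Q331K livers both lay below all WT livers, while TMEM106B-/- livers overlapped them. It fell in the combined genotype (log2 fold change -1.25 ± 0.29, edgeR adjusted p = 0.0150), a call lost without combined replicate 2 or without combined replicate 3. The read-through gene Gm49387 shares 31.1% of the exon bases of Hacl1 on the same strand and was listed at 0 counts in all livers, so the count of Hacl1 may cover only part of its reads. Nudt7, a peroxisomal CoA diphosphatase, missed the threshold at log2 fold change -0.63 ± 0.20, edgeR adjusted p = 0.0696. It had 413, 290.2, 287 and 323 CPM in combined livers and 679, 401, 471 and 476 in WT livers, and the groups overlapped by 1 liver. Nudt7 was called lower by DESeq2, by limma-voom and without the 3 livers of high acute phase transcripts.

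Of the other peroxisomal members, Abcd3, the transporter of branched and dicarboxylic acyl-CoA (0.55 ± 0.17), Pex11a, a factor of peroxisome division (0.60 ± 0.18), and Abcd2 (1.63 ± 0.51) had edgeR adjusted p of 0.0563, 0.0577 and 0.0689, and DESeq2 called all 3, limma-voom Abcd3 and Abcd2. The thioesterases Acot3 (1.26 ± 1.03) and Acot4 (0.62 ± 0.52) had wide errors, and they lie with Acot1 and Acot2 in a cluster of similar genes on chromosome 12, whose reads may be divided uncertainly. Acot4 had 87.1, 122, 142 and 202 CPM in combined livers, 225, 240.0, 66.2 and 34.5 in TMEM106B-/- livers, 106, 124, 87.7 and 65.6 in TDP-43Q331K livers and 42.2, 89.99, 124 and 104 in WT livers, with overlap of all groups. The bile acid and branched-chain oxidase Acox2 (0.01 ± 0.17), the octanoyltransferase Crot (0.19 ± 0.23), the D-specific bifunctional enzyme Hsd17b4 (0.26 ± 0.12), Phyh (-0.25 ± 0.14) and Nudt19 (-0.03 ± 0.13) were not called. An antisense gene covers 35.0% of the exon bases of Nudt19, and the strand setting of the counting is not given in the sources used here.

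At the gate of mitochondrial uptake edgeR called no member in any comparison, while DESeq2 called Slc25a20 between the combined genotype and each single genotype and in the interaction, and limma-voom called Slc25a20 between the combined genotype and TMEM106B-/- and Cpt1a between TDP-43Q331K and WT. Cpt1a had 241, 213, 255 and 301 CPM in combined livers, 243, 280.0, 236 and 308 in TMEM106B-/- livers, 373, 325, 165 and 261 in TDP-43Q331K livers and 225, 181, 184 and 192 in WT livers. Both the highest and the lowest values came from TDP-43Q331K livers, and combined and WT livers overlapped (log2 fold change 0.37 ± 0.19, edgeR adjusted p = 0.262). The carnitine-acylcarnitine carrier Slc25a20 (log2 fold change 0.24 ± 0.10) and the inner transferase Cpt2 (0.02 ± 0.13) were not called between the combined genotype and WT. Slc25a20 had 147, 145, 168 and 171 CPM in combined livers, 129.5, 120.4, 120.0 and 110.1 in TMEM106B-/- livers, 131, 142, 106 and 124 in TDP-43Q331K livers and 128, 127, 129.9 and 149 in WT livers, so 2 of 4 combined livers exceeded the highest WT liver. Cpt2 had 119, 107, 147 and 138 CPM in combined livers, 97.4, 87.5, 108 and 99.6 in TMEM106B-/- livers, 127, 120.3, 92.1 and 123 in TDP-43Q331K livers and 119.9, 118, 120.1 and 145 in WT livers, with wide overlap.

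Within the mitochondrial spiral, Acads, Hadh and Decr1 were called. Acads, the dehydrogenase for short chains, had 209.8, 227, 263 and 249.9 CPM in combined livers, 197, 194, 205 and 183 in TMEM106B-/- livers, 206, 197, 165 and 214 in TDP-43Q331K livers and 207, 148, 170.0 and 165 in WT livers. Combined livers lay above WT livers, the lowest of them narrowly, and were 1.38-fold higher (log2 fold change 0.46 ± 0.12, edgeR adjusted p = 0.0247). Hadh, the dehydrogenase of short-chain 3-hydroxyacyl-CoA, had 299, 332, 355 and 353 CPM in combined livers, 245, 275, 283 and 224 in TMEM106B-/- livers, 292, 278, 179 and 269 in TDP-43Q331K livers and 249, 180.2, 228 and 220.0 in WT livers. The 4 combined livers exceeded all other 12 livers, and the difference from WT was 1.53-fold (log2 fold change 0.61 ± 0.14, edgeR adjusted p = 0.0171). Decr1, the mitochondrial reductase for unsaturated chains, had 183, 206, 220.0 and 222 CPM in combined livers, 182, 168, 177 and 164 in TMEM106B-/- livers, 209, 194, 143 and 163 in TDP-43Q331K livers and 141, 125, 148 and 182 in WT livers. Its combined and WT ranges nearly touched (log2 fold change 0.48 ± 0.13, edgeR adjusted p = 0.0352). The call of Hadh was lost without WT replicate 2 or without combined replicate 3, that of Acads in 6 of 15 alternatives and that of Decr1 in 9 of 15, the one without the 3 livers of high acute phase transcripts among them. WT replicate 2 was the lowest WT liver for all 3 genes.

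Other enzymes of the spiral were not called by edgeR. Acadm, the medium-chain dehydrogenase, had 275, 270.3, 343 and 307 CPM in combined livers, 247, 261, 282 and 249 in TMEM106B-/- livers, 309, 253, 169 and 231 in TDP-43Q331K livers and 275, 209, 223 and 218 in WT livers (log2 fold change 0.37 ± 0.15, edgeR adjusted p = 0.149). Combined livers were high as a group, but WT replicate 1 fell among them. Hadha and Hadhb encode the alpha and beta subunits of the trifunctional protein from the pair of starts 85 bases apart shown above. Hadha had 264, 266, 308 and 273 CPM in combined livers, 239, 248, 255 and 292 in TMEM106B-/- livers, 304, 258, 162 and 248 in TDP-43Q331K livers and 271, 201, 226 and 209.8 in WT livers. Its difference between combined and WT livers (0.29 ± 0.15) was of the size of that of Hadhb (0.29 ± 0.15), with edgeR adjusted p of 0.278 and 0.274. Acadl (0.22 ± 0.11), Acadvl (-0.03 ± 0.08), Acaa2 (-0.03 ± 0.11), the isomerase Eci1 (0.38 ± 0.12) and the muscle transferase Cpt1b (0.52 ± 0.27) were not called by edgeR either, while Eci1 was called by DESeq2, by limma-voom and by edgeR without WT replicate 4. Acadvl shares 42.9% of its exon bases with Dvl2 on the other strand, and Cpt1b shares 81.4% with the read-through gene Gm44502, listed at 0 counts in all livers.

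The electron transfer flavoprotein passes electrons from the dehydrogenases to the respiratory chain. Etfa (0.15 ± 0.09) and its dehydrogenase Etfdh (0.43 ± 0.17) were not called by edgeR, although limma-voom called Etfdh, while Etfb fell (log2 fold change -0.94 ± 0.27, edgeR adjusted p = 0.0473). Etfb had 8.76, 3.77, 5.46 and 7.08 CPM in combined livers, 8.01, 9.11, 6.36 and 4.97 in TMEM106B-/- livers, 8.27, 8.73, 8.27 and 7.14 in TDP-43Q331K livers and 6.504, 12.95, 11.5 and 17.1 in WT livers. Combined and WT livers overlapped through WT replicate 1, and the call was lost in 9 of 15 alternatives. The read-through gene Gm45233 shares 53.0% of the exon bases of Etfb on the same strand and was listed at 0 or 1 counts in every liver library, so the count of Etfb may cover only part of its reads.

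Outside the spiral, the mitochondrial thioesterase Acot2 and the kinase Pdk4 showed higher folds. Acot2, which frees fatty acids from CoA, had 7.74, 11.7, 11.9 and 13 CPM in combined livers, 6.04, 6.99, 4.77 and 3.797 in TMEM106B-/- livers, 4.56, 5.36, 2.44 and 3.301 in TDP-43Q331K livers and 1.401, 1.94, 5.13 and 6.19 in WT livers. All combined livers exceeded the other 12 (log2 fold change 1.59 ± 0.39, edgeR adjusted p = 0.0239, 3.002-fold), and the call was lost in 7 of 15 alternatives, among them the one without the 3 livers of high acute phase transcripts. Pdk4, a well known PPAR-alpha target whose product spares glucose while fat is burned, had 5.24, 11.6, 7.75 and 3.31 CPM in combined livers, 2.27, 2.08, 3.54 and 2.39 in TMEM106B-/- livers, 2.38, 3.07, 2.203 and 1.43 in TDP-43Q331K livers and 2.21, 2.55, 2.14 and 2.72 in WT livers. Combined livers were all above WT livers but spread more widely among themselves, with combined replicate 4 the lowest. The difference was 2.895-fold (log2 fold change 1.53 ± 0.31, edgeR adjusted p = 0.00644).

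Crat, the carnitine acetyltransferase of mitochondria and peroxisomes (chr2:30400471-30415813), had 63.9, 81.4, 98.8 and 82.1 CPM in combined livers, 46.5, 31.9, 46.8 and 39.7 in TMEM106B-/- livers, 46.7, 47.6, 25.9 and 27.3 in TDP-43Q331K livers and 37.2, 46.2, 48.2 and 46.5 in WT livers. Every combined liver exceeded every other liver. It was 1.83-fold higher than in WT livers (log2 fold change 0.87 ± 0.20, edgeR adjusted p = 0.0135). Vnn1, which recycles pantothenate for CoA and is a marker of hepatic PPAR-alpha activity in mice (chr10:23894688-23905343), had 55.5, 90.6, 66.96 and 81.3 CPM in combined livers, 31.4, 20.2, 29.1 and 19.8 in TMEM106B-/- livers, 34.4, 32.2, 14.3 and 21.4 in TDP-43Q331K livers and 35.5, 18.1, 27.1 and 30.2 in WT livers. Again the combined livers stood above all 12 others, 2.65-fold above WT (log2 fold change 1.41 ± 0.27, edgeR adjusted p = 0.00523). Acad11 (0.12 ± 0.18) and the isomerase Eci2 (0.02 ± 0.12), like Crat present in both compartments, were not called.

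For Ppara itself edgeR made no call in liver or cortex, and DESeq2 made one, in the liver interaction. It had 50.4, 43.4, 54.8 and 56.7 CPM in combined livers, 76.5, 60.6, 66.02 and 49.4 in TMEM106B-/- livers, 78.99, 63.4, 72.4 and 58.2 in TDP-43Q331K livers and 37.7, 31.1, 60.9 and 53.03 in WT livers. All combined livers lay inside the WT range, and the highest values were in the single genotypes, with log2 fold changes against the same WT livers of 0.17 ± 0.18 in the combined genotype, 0.47 ± 0.18 in TMEM106B-/- and 0.58 ± 0.18 in TDP-43Q331K (edgeR adjusted p = 0.64, 0.24 and 0.178). Acot1 had 22.4, 18.8, 51.01 and 33.9 CPM in combined livers, 18.7, 26.3, 13.4 and 14.7 in TMEM106B-/- livers, 21.02, 22.2, 8.102 and 11.6 in TDP-43Q331K livers and 11.1, 9.55, 31.2 and 28.8 in WT livers, with wide overlap (log2 fold change 0.64 ± 0.45, edgeR adjusted p = 0.437). Acsl1 (-0.22 ± 0.16) and Cpt1c (0.28 ± 0.29) were not called. Cpt1c had 0.729, 0.467, 1.23 and 0.863 CPM in combined livers, 0.421, 0.911, 0.779 and 0.675 in TMEM106B-/- livers, 0.584, 0.763, 0.801 and 0.603 in TDP-43Q331K livers and 0.623, 0.629, 0.783 and 0.663 in WT livers, with wide overlap at a low level.

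**Figure D3:**
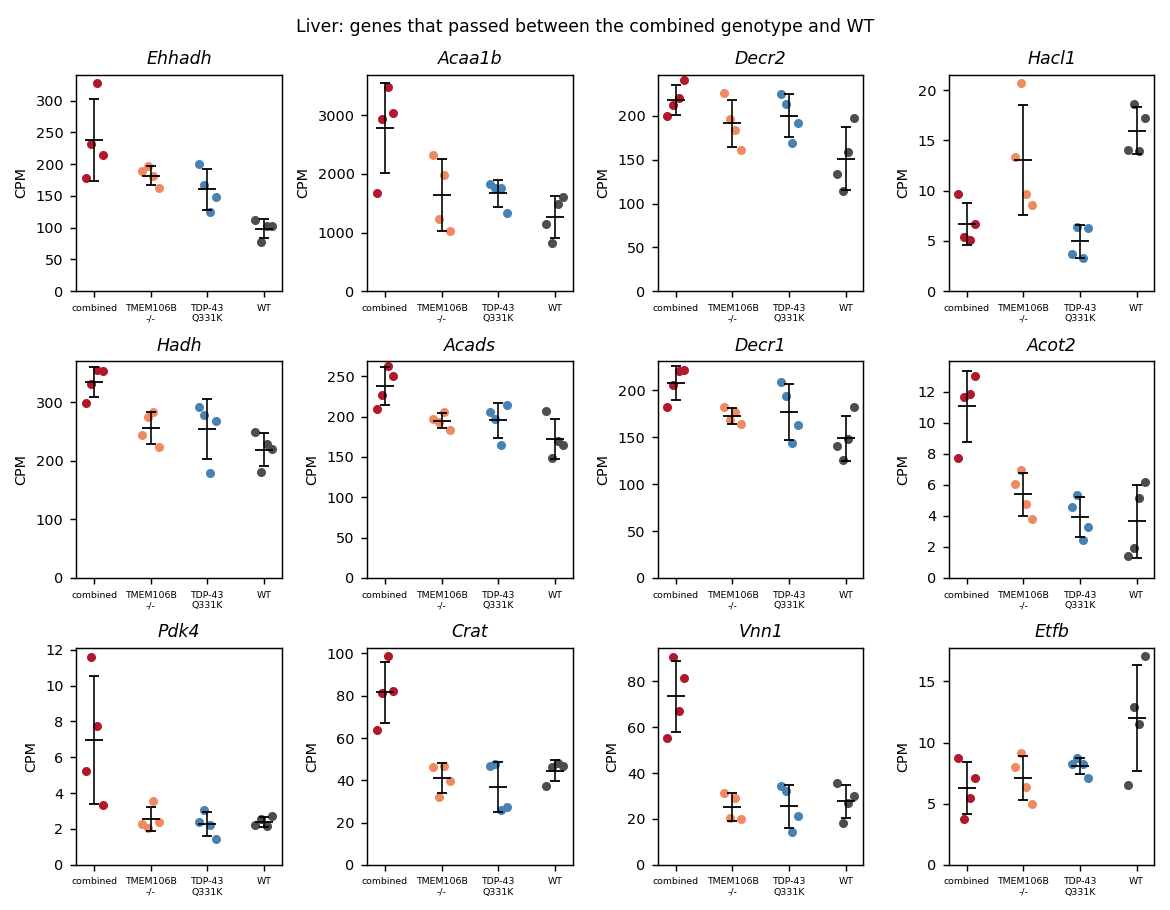
CPM in each liver library for the 12 genes called between the combined genotype and WT; points are libraries, and bars are mean ± SD of 4. The combined livers lie above all WT livers for 10 genes, below all of them for Hacl1, and overlap them for Etfb. The genes were picked by this comparison on these libraries, so their separation adds nothing to the calls.

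Whether the combined genotype differed from each single genotype was asked next; these comparisons share the combined livers. Against TDP-43Q331K, 5 of 43 members were called (11.6%), all higher, where 3.94% of all tested genes were called and 2.17% were higher. They were Crat (log2 fold change 1.15 ± 0.20, edgeR adjusted p = 0.00384), Vnn1 (log2 fold change 1.53 ± 0.27, edgeR adjusted p = 0.00589), Pdk4 (log2 fold change 1.62 ± 0.31, edgeR adjusted p = 0.00852), Acot2 (log2 fold change 1.50 ± 0.39, edgeR adjusted p = 0.0447) and Abcd2 (log2 fold change 1.99 ± 0.51, edgeR adjusted p = 0.0463). The first 3 were called under all 15 alternatives, while Acot2 and Abcd2 held in 5 each. Leaving out any one of TDP-43Q331K replicates 2, 3 and 4 or combined replicates 2, 3 and 4 left 3 members called. In those fits 143 to 393 of all tested genes were called higher, against 362 with all libraries. Abcd2 had 16.5, 29.4, 16.99 and 19.5 CPM in combined livers, 19.7, 12.4, 12.8 and 7.61 in TMEM106B-/- livers, 9.79, 7.499, 1.04 and 2.397 in TDP-43Q331K livers and 6.95, 7.46, 7.04 and 5.26 in WT livers. Combined livers exceeded the TDP-43Q331K livers, in which replicates 3 and 4 were low. Without the 3 livers of high acute phase transcripts Abcd2 lost its call and 7 members were called, 6 higher and 1 lower. Acaa1b and Ehhadh were added as higher and Nudt7 as lower in the combined genotype. The median log2 fold change was 0.23 over mitochondrial and 0.31 over peroxisomal members. Over all members the median was 0.23, against -0.01 over all tested genes. It ran between 0.14 and 0.31 over the 15 alternatives and was 0.14 without TDP-43Q331K replicate 3.

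Against TMEM106B-/-, 3 of 43 members were called (6.98%), all higher, where 1.04% of all tested genes were called and 0.485% were higher. They were Vnn1 (log2 fold change 1.55 ± 0.27, edgeR adjusted p = 0.0100), Crat (log2 fold change 0.98 ± 0.20, edgeR adjusted p = 0.0225) and Pdk4 (log2 fold change 1.44 ± 0.31, edgeR adjusted p = 0.0326). The number was 1 without TMEM106B-/- replicate 2, without TMEM106B-/- replicate 4, without combined replicate 2 and without combined replicate 3. Those fits called 43 to 68 of all tested genes higher, against 81 with all libraries. Vnn1 was the only member called under all 15 alternatives. The ranges of Crat and Vnn1 were separate, and those of Pdk4 met at combined replicate 4 and TMEM106B-/- replicate 3. Without the 3 livers of high acute phase transcripts Crat and Pdk4 lost their calls (edgeR adjusted p = 0.0507 and 0.0801). The 2 members called were then Vnn1, higher, and Hacl1, lower in the combined genotype. The median over members was 0.16, against -0.01 over all tested genes, and ran between 0.11 and 0.22 over the 15 alternatives. With all libraries it was 0.16 over mitochondrial and 0.17 over peroxisomal members.

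Each single genotype against the same WT livers gave 1 called member (2.33%). In TMEM106B-/- it was Ehhadh, 1.85-fold higher (log2 fold change 0.89 ± 0.18, edgeR adjusted p = 0.0234), where 1.05% of all tested genes were called. The call was lost in 5 of 15 alternatives, each time when 1 library was left out (WT replicates 2 and 3, TMEM106B-/- replicates 1, 2 and 3). In TDP-43Q331K it was Hacl1, 3.23-fold lower (log2 fold change -1.69 ± 0.29, edgeR adjusted p = 0.0267), where 0.263% of all tested genes were called. That call was lost without WT replicate 2 or 3 and without TDP-43Q331K replicate 1, 3 or 4. Ehhadh in TDP-43Q331K (log2 fold change 0.71 ± 0.18, edgeR adjusted p = 0.105) did not pass, although its livers lay above all WT livers, and was called by DESeq2 and limma-voom. Without the 3 livers of high acute phase transcripts both calls held. Over mitochondrial and peroxisomal members the medians were 0.17 and 0.16 in TMEM106B-/-, and 0.09 and 0.07 in TDP-43Q331K. The median over all members was 0.10 in TMEM106B-/- and 0.05 in TDP-43Q331K, against all-gene medians of 0.0027 and -0.0087. In TMEM106B-/- it was 0.06 without WT replicate 2. In TDP-43Q331K the median ran between -0.02 and 0.16 over 15 alternatives and was 0.16 without replicate 3. That library was the lowest of its genotype for 33 of 43 members and had the fewest hepatocyte marker transcripts of these 4 livers (100100 CPM, against 117700 to 127500 CPM in the others). The part of that difference in the result was not tested.

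The interaction asks whether the effect of TMEM106B-/- differed between TDP-43Q331K and normal TDP-43. Crat was the only member called (2.33% of members, 0.688% of all tested genes), with an interaction of 1.26 ± 0.28 (edgeR adjusted p = 0.0464). Its log2 fold change was 1.15 ± 0.20 between the combined genotype and TDP-43Q331K, and -0.11 ± 0.20 between TMEM106B-/- and WT. The call held in 7 of 22 alternatives. It was lost when any one of 12 libraries was left out (WT replicates 2, 3 and 4, TDP-43Q331K replicates 3 and 4, each TMEM106B-/- replicate, and combined replicates 2, 3 and 4), and also without the 3 livers of high acute phase transcripts. The replicate block and the fit with no filter on low counts gave 0 members called. Vnn1 (interaction 1.67 ± 0.38, edgeR adjusted p = 0.0566), Pdk4 (interaction 1.52 ± 0.44, edgeR adjusted p = 0.110) and Ppara (interaction -0.88 ± 0.26, edgeR adjusted p = 0.122) missed the threshold with edgeR, and DESeq2 called all 3, limma-voom Vnn1. Ppara ran in the other direction. The median interaction was 0.15 over mitochondrial and -0.13 over peroxisomal members, against -0.0055 over all tested genes. Over the 22 alternatives the mitochondrial median ran between 0.03 and 0.19 and the peroxisomal one between -0.23 and 0.08.

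Relative to the WT mean, 30 to 38 of 43 members were higher in each combined liver, with a median log2 difference of 0.19 to 0.45. In TMEM106B-/- livers 23 to 31 members were above the WT mean, and in TDP-43Q331K livers 10 to 36, the lowest count again being replicate 3. WT livers had 10 to 27 members above their own mean, with WT replicate 2 at 10. The median coefficient of variation of a member was 12.6% in combined, 13.3% in TMEM106B-/-, 16.1% in TDP-43Q331K and 14.5% in WT livers.

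**Figure D4:**
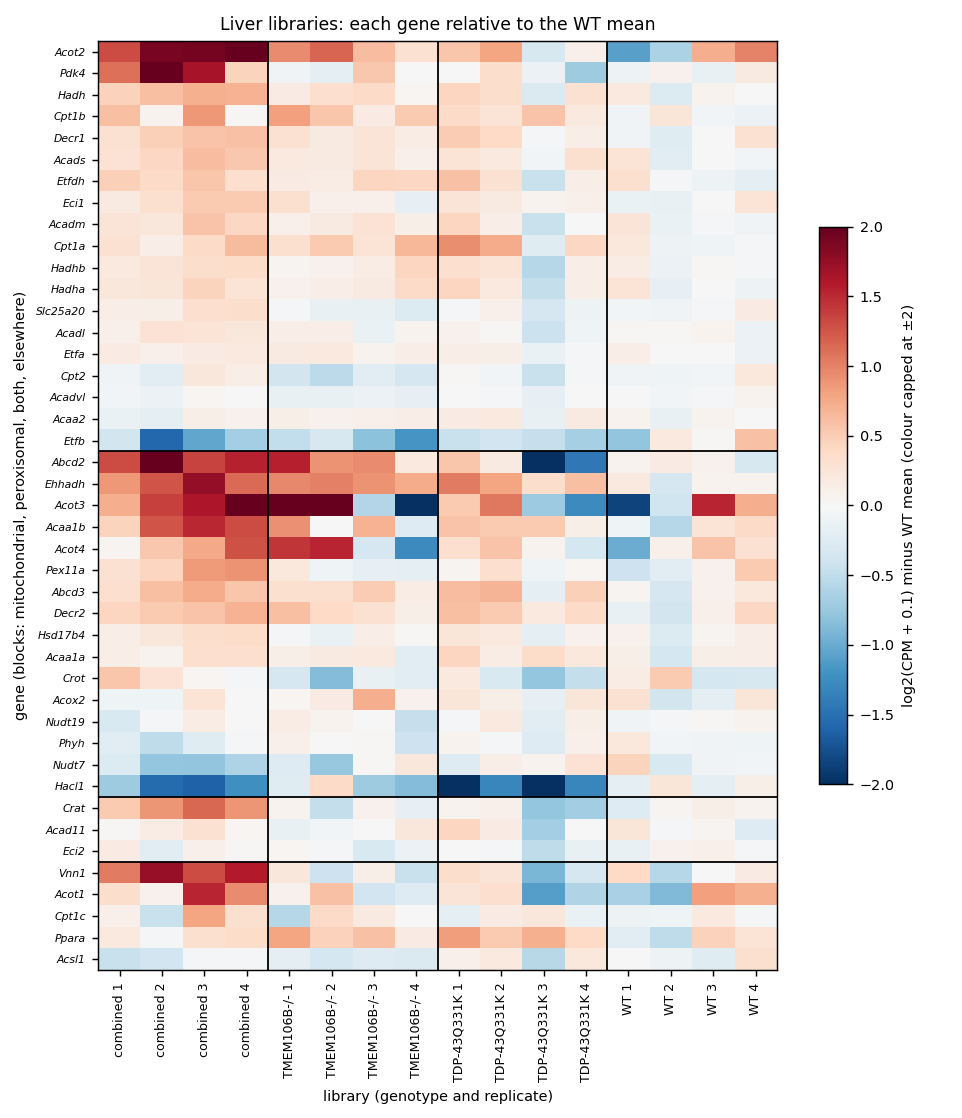
Log2(CPM + 0.1) of each gene in each liver library minus the WT mean, red above and blue below, with colour capped at 2. Combined replicates are red in most rows, and TDP-43Q331K replicate 3 is blue in most rows, with 10 of 43 genes above the WT mean.

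Adipocyte markers moved with the combined genotype in liver. Their summed level was 21.4 to 65.1 CPM in combined livers, 10.7 to 20.01 in TMEM106B-/-, 8.03 to 17.6 in TDP-43Q331K and 8.28 to 11.9 in WT livers. Of the 7 markers 3 reached 1 CPM (Cfd, Cidec and Fabp4), and the defining adipocyte genes Adipoq, Lep, Plin1 and Retn stayed under 1 CPM in every liver. Cidec, Fabp4 and Retn were called higher in combined than in WT livers. Hepatocyte marker sums were 97200 to 129000 CPM in combined livers and 106200 to 130600 CPM in WT livers. Stellate cell markers summed to 176 to 220 CPM in combined and 125 to 189 CPM in WT livers, with Col1a1, Col1a2 and Col3a1 called higher and Hhip lower. The part of these markers in the results on members was not tested.

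Other genes of the pathways were read from lists chosen by name, with earlier results of these data known. The shares given for them therefore describe chosen lists. Of 32 tested further PPAR-alpha targets, 10 rose in combined livers against WT, with a median of 0.74, where 4.19% of all tested genes rose. Cd36, a fatty acid transporter, had 120.2, 159, 121 and 129 CPM in combined livers, 44.1, 47.7, 44.7 and 27.6 in TMEM106B-/- livers, 39.8, 38.8, 24.5 and 32.6 in TDP-43Q331K livers and 23.96, 20.3, 24.3 and 30.2 in WT livers. Every combined liver lay far above all others (2.42 ± 0.19, edgeR adjusted p = 1.36e-06). Acsl5 (1.01 ± 0.14, edgeR adjusted p = 0.000447), an acyl-CoA synthetase, the lipid droplet genes Fitm1 (0.96 ± 0.18, edgeR adjusted p = 0.00339) and Cidec (3.36 ± 0.58, edgeR adjusted p = 0.00369), the carrier Fabp4 (0.90 ± 0.18, edgeR adjusted p = 0.00546) and the coactivator Ppargc1a (1.13 ± 0.26, edgeR adjusted p = 0.0148) also rose. Cidec and Fabp4 also stand on the adipocyte marker list, whose summed level moved with this genotype as given above. Of 52 tested other oxidation genes 12 rose (median 0.22), among them the malonyl-CoA synthetase Acsf3 (0.74 ± 0.11, edgeR adjusted p = 0.000857). Of 17 tested genes of peroxisome assembly 3 rose (median 0.14): Pex14, Pex19 and Pex11g. Among the partners of PPAR receptors, Pparg was called higher.

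Fatty acid synthesis runs through malonyl-CoA, a known inhibitor of the Cpt1 transferases. Of 12 genes of synthesis 9 were called higher in combined livers against WT, with a median of 1.44, where 4.19% of all tested genes were higher. In TMEM106B-/- livers against WT 6 were (median 1.04), where 0.688% of all tested genes were higher. Elovl5, an elongase of polyunsaturated chains, had 668, 1234, 871 and 705 CPM in combined livers, 461, 425, 483 and 483 in TMEM106B-/- livers, 426, 348, 221 and 188 in TDP-43Q331K livers and 185, 201, 129 and 133 in WT livers. Combined livers were above all WT livers (2.42 ± 0.25, edgeR adjusted p = 4.09e-05).

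In cortex 1 member passed the test in 1 comparison, and none in the other 5. Between the combined genotype and WT 0 of 41 tested members were called by edgeR, where 4.89% of all tested genes were; 4 had an unadjusted p under 0.05, DESeq2 called 0 and limma-voom 2, Phyh higher and Acaa1a lower. TMEM106B-/- against WT gave 0 (5.16% of all tested genes; 5 unadjusted, DESeq2 0, limma-voom 1, Acaa1a). TDP-43Q331K against WT gave 0 (0% of all tested genes; 2 unadjusted, DESeq2 0, limma-voom 0), the combined genotype against TMEM106B-/- gave 0 (0% of all tested genes; 1 unadjusted, DESeq2 0, limma-voom 0), and the interaction gave 0 (0% of all tested genes; 2 unadjusted, DESeq2 0, limma-voom 0). The percentages are edgeR adjusted calls. At an unadjusted p under 0.05 the interaction held 972 of 21248 tested genes, and the other comparisons have no such share here. Between the combined genotype and WT, limma-voom called 928 of all tested genes higher and 890 lower, DESeq2 818 and 792. Between TMEM106B-/- and WT, limma-voom called 916 and 773, DESeq2 821 and 658. Medians over members were 0.04 in the combined genotype and 0.04 in TMEM106B-/- against WT. For the combined genotype against WT, the mitochondrial median ran between 0.015 and 0.073 over the 17 alternatives. The peroxisomal one ran between -0.021 and 0.015. Within groups the cortex varied less, with a median coefficient of variation of 6.61% to 9.62% per genotype.

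In cortex, setting the combined genotype against TDP-43Q331K gave a single call: 1 of 41 members (2.44%, against 1.4% of all tested genes), the peroxisomal thioesterase Acot4. It had 3.297, 2.998, 3.398, 2.86 and 2.71 CPM in combined cortices, 4.06, 3.36, 4.13, 3.91 and 3.18 in TMEM106B-/- cortices, 3.87 to 4.53 with a median of 4.03 in TDP-43Q331K cortices and 3.22, 3.58, 3.37, 3.47 and 3.15 in WT cortices. Combined cortices lay below all TDP-43Q331K cortices (log2 fold change -0.43 ± 0.09, edgeR adjusted p = 0.0257), and TDP-43Q331K cortices lay above all WT cortices, a difference that was not called (log2 fold change 0.29 ± 0.09, edgeR adjusted p = 0.724). The call was lost with no filter on low counts, with only the compared groups, without TDP-43Q331K replicate 1, without combined replicate 4 and without the 4 cortices with extreme tissue markers, a choice made after seeing the data; 3 members were called without combined replicate 5 and 2 without TDP-43Q331K replicate 2. In WT libraries Acot4 stood at 13.5 ± 5.22 CPM per kb in liver (SD, n = 4) and 0.503 ± 0.026 in cortex (SD, n = 5).

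Neither the brain isoform nor the regulator was called in cortex. Cpt1c, the brain isoform that binds malonyl-CoA in the endoplasmic reticulum of neurons, had 93.8, 83.6, 97.7, 95.4 and 105 CPM in combined cortices, 92.7, 92.7, 104, 97.5 and 91.8 in TMEM106B-/- cortices, 84.4 to 97.6 with a median of 91.1 in TDP-43Q331K cortices and 91.4, 87.4, 92.9, 88.01 and 81.9 in WT cortices, with groups overlapping (log2 fold change 0.11 ± 0.05, edgeR adjusted p = 0.246). Ppara had 3.62, 3.84, 4.14, 3.12 and 3.42 CPM in combined cortices, 4.03, 3.697, 3.33, 3.05 and 4.37 in TMEM106B-/- cortices, 2.71 to 3.53 with a median of 3.02 in TDP-43Q331K cortices and 3.25, 3.58, 2.97, 3.59 and 3.51 in WT cortices, a low level with overlap (log2 fold change 0.10 ± 0.11, edgeR adjusted p = 0.637). Pdk4 had 8.91, 7.79, 6.93, 9.31 and 10.9 CPM in combined cortices, 8.896, 6.72, 7.04, 9.27 and 9.35 in TMEM106B-/- cortices, 7.101 to 9.13 with a median of 7.93 in TDP-43Q331K cortices and 7.45, 6.41, 5.97, 7.48 and 9.33 in WT cortices (log2 fold change 0.26 ± 0.13, edgeR adjusted p = 0.237). Hadha (0.07 ± 0.05) and Cpt1a (0.01 ± 0.06) were not called between the combined genotype and WT (log2 fold changes). A difference between liver and cortex was not tested.

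Of 24 other PPAR-alpha targets tested in cortex 4 rose in the combined genotype against WT (median 0.05), where 2.53% of all tested genes rose, among them Angptl4 (1.39 ± 0.24, edgeR adjusted p = 0.00402), Ucp2 (0.76 ± 0.19, edgeR adjusted p = 0.0281) and Cd36 (1.01 ± 0.28, edgeR adjusted p = 0.0417). Meningeal fibroblast markers, 8 of 8 detected, moved with them, at a summed 417 to 845 CPM in combined, 266 to 975 in TMEM106B-/-, 175 to 396 in TDP-43Q331K and 113 to 348 in WT cortices. Oligodendrocyte markers, 8 of 8 detected, ran lower, at a summed 1105 to 2478 CPM in combined, 1016 to 1461 in TMEM106B-/-, 1921 to 3107 in TDP-43Q331K and 2857 to 3251 in WT cortices. Their part in these differences was not tested.

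**Figure D5:**
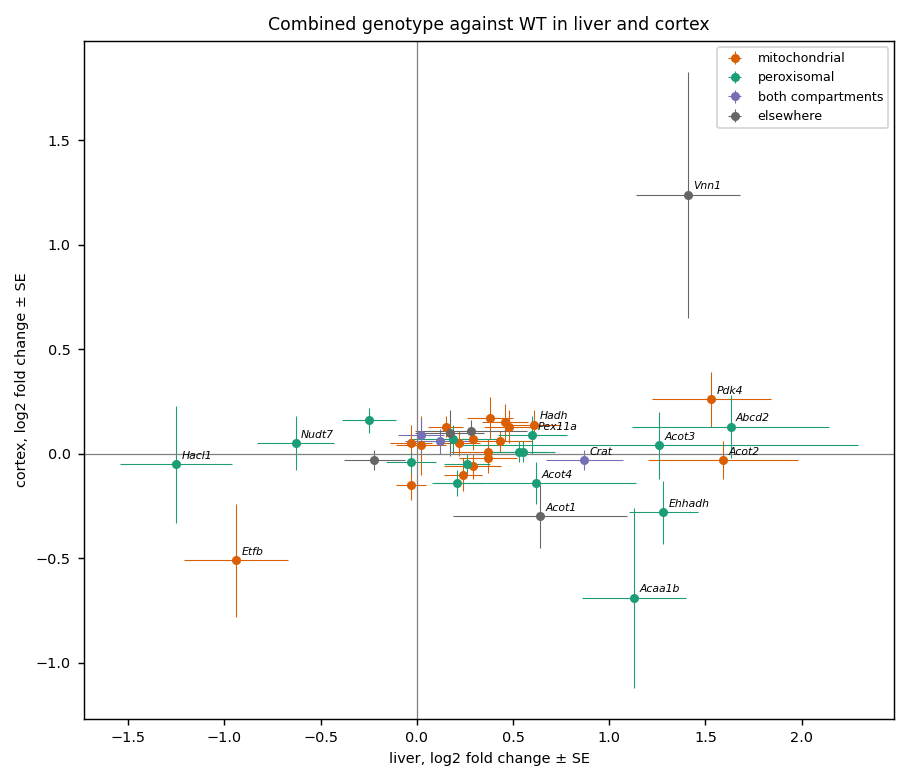
Log2 fold change ± SE of 41 genes between the combined genotype and WT in liver (horizontal) and cortex (vertical), coloured by compartment. Abcd2, Acot2, Pdk4, Vnn1, Ehhadh, Acot3 and Acaa1b lie beyond 1 in liver on the higher side, and Hacl1 on the lower side. Abcd2 and Acot3 were not called there by edgeR. In cortex most genes lie near 0. Genes with wide vertical bars, such as Vnn1 and Acaa1b, are scarce in cortex.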

How the data were processed

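RNA-seq counts per gene were deposited for 16 liver and 21 cortex libraries of 4 genotypes; 1 further cortex column matched no sample and was not used. Per the labels, the library kit was directional; per the submitters' processing notes, Trim Galore, cutadapt and FastQC were used and the builds were GRCm38 and mm10. Aligner, counter, strand setting and tool versions: not given in the sources used here.

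Raw counts deposited by the authors were tested as they stand with edgeR 4.0.16 in R 4.3.3 (TMM scaling, filterByExpr with a minimum count of 10 and a minimum total of 15, robust quasi-likelihood fit of all 4 genotypes in each tissue), leaving 12 (liver) and 17 (cortex) residual degrees of freedom, and Benjamini-Hochberg adjustment over all tested genes. Each tissue had 5 pairwise comparisons and the interaction. Rows were matched by Ensembl identifier to GENCODE M21. The depth of 28.8 to 74.1 M counts per library makes counting error small for all but the scarcest members. Counts were also simulated with the liver means and spread, combined against WT. Of genes changed 1.5-fold 30% were recovered, and of genes changed 3-fold 93%, among 16509 genes (3.15% of calls false). In cortex the shares were 74% and 99% among 21014 genes (5.46% false). The simulation changed far fewer genes than were called in these data, all above 1 CPM, so recovery in the data may differ.

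Full values were given for members called in at least 1 comparison and for Ppara, Cpt1a, Cpt2, Slc25a20, Acadm, Hadha, Pdk4, Acot1 and Cpt1c; of the other lists, at most 6 called genes per list and comparison were named, smallest p first, and some of these genes are not reported here. Members and lists were chosen with earlier results of these data known. Alternatives were RLE size factors, no filter, a replicate block, DESeq2 1.42.0, limma-voom 3.58.1 with quality weights, only the compared groups and each library left out; leaving out the libraries that stood apart and the 2-mismatch motif search were added after seeing the data.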

Additional observations from a re-analysis of the deposited data

Results flagged for a closer look

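Of 104 groups, each the 4 to 6 libraries of a genotype in a tissue for a single gene, 3 held a library far from the others. Chance gives about 1 in 20 groups, so these 3 are fewer than chance would give. Acaa1b was at 1328 CPM in TDP-43Q331K liver replicate 4, against 1758 to 1833 CPM in the other TDP-43Q331K livers. WT liver replicate 4 was high for 2 genes of uptake, while its Cpt1a, at 192 CPM, lay within the other WT livers (181 to 225 CPM): Cpt2 was at 145 CPM, against 118 to 120.1 CPM in the other WT livers, and Slc25a20 at 149 CPM, against 127.0 to 130 CPM.

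The effect of TMEM106B-/- on Crat differed in liver between TDP-43Q331K and normal TDP-43, by 1.26 on the log2 scale (edgeR adjusted p = 0.0464). The adjusted p ranged between 0.00293 and 0.0999 over the 22 alternatives.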

How the results depend on the processing

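Over all alternatives no called member changed direction. Of the results for single members, 258 stayed on their side of the threshold and 112 lost their call. The cause of each difference below was not tested. The number of all tested genes called moved as well. Between the combined genotype and WT in liver it was 700 higher and 476 lower with edgeR. It was 1065 and 786 with DESeq2, 1075 and 865 with limma-voom, and 575 and 327 with no filter. Between TDP-43Q331K and WT it was 26 and 18 with edgeR, 212 and 189 with DESeq2, and 179 and 162 with limma-voom. In the interaction these numbers were 57 and 58, 324 and 276, and 175 and 145.

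In liver, the number of members called between the combined genotype and WT (12) was 17 by DESeq2, 17 by limma-voom, 10 with no filter and 9 with only the compared groups; between the combined genotype and TDP-43Q331K (5), 3 with no filter and 8 by DESeq2; between the combined genotype and TMEM106B-/- (3), 6 by DESeq2; between TDP-43Q331K and WT (1), 2 by DESeq2 and 3 by limma-voom; in the interaction (1), 0 with no filter, 5 by DESeq2 and 2 by limma-voom. In cortex, limma-voom called 2 members between the combined genotype and WT and 1 between TMEM106B-/- and WT, where edgeR called 0. Between the combined genotype and TDP-43Q331K (1), the number was 0 with no filter and 0 with only the compared groups. It was also 0 without the 4 cortices with extreme markers, 3 by DESeq2 and 4 by limma-voom. Of all tested genes edgeR called 170 higher and 128 lower there, DESeq2 419 and 411, and limma-voom 396 and 385.

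Leaving out 1 library at a time gave 4 to 13 members for the combined genotype against WT in liver. All tested genes called there ran from 452 to 675 higher and from 221 to 521 lower. For the combined genotype it gave 3 to 5 members against TDP-43Q331K and 1 to 3 against TMEM106B-/-. Each single genotype against WT gave 0 to 1, and so did the interaction. In cortex the combined genotype gave 0 to 1 against WT and 0 to 3 against TDP-43Q331K.

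Replicate numbers showed no clear pairing of the libraries, though this check cannot exclude it. Same-numbered libraries correlated between -0.207 and 0.278 in liver (24 pairs) and between -0.196 and 0.158 in cortex (30 pairs). Libraries of different numbers correlated between -0.255 and 0.231 in liver and between -0.285 and 0.258 in cortex. With the replicate block, 9 members were called for the combined genotype against WT in liver, 4 against TDP-43Q331K, 2 against TMEM106B-/-, and 0 in the interaction; in cortex Acot4 remained called, 1 member.

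Limits: with 4 livers a group, 30% of simulated 1.5-fold changes were recovered, so moderate changes could be missed. Recovery in the data may differ, as far fewer genes changed in the simulation. Close copies and overlapping genes may share reads. Tissue composition and RNA per cell cannot be told apart.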
